A study of Mus musculus with 15 samples.

Results

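Mup3, Mup5, Mup6 and Mup20 encode major urinary proteins, and they were followed here across ectopic liver tissue, injured liver, normal liver and kidney of female mice. They were taken by name, as 4 of the 15592 genes that passed a filter on dim signals, and a probe on the array was assigned to one of them by the RefSeq accession in its annotation. All 4 passed that filter, with 1 probe each for Mup3, Mup5 and Mup6 and 2 probes for Mup20. In the ectopic tissue the signal of all 4 was called lower than in normal liver, by 7.57 to 23.3 times, as was that of 29.8% of all genes tested. Against the injured liver of the host mice 3 of the 4 were called lower, as were 31.1% of all genes. In that injured liver Mup6 alone of the 4 was called lower than in normal liver, by 12.6 times, as were 11.3% of all genes.

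Total RNA of 15 samples was hybridised to one-colour arrays, 1 array per sample, all from FVB/N females. The 4 neo-liver samples were ectopic liver tissue microdissected from beneath the kidney capsule of host mice, 250 to 300 days after 1000000 hepatocytes had been placed there. The 4 host liver samples and the 4 host kidney samples came from such hosts, aged 48 to 55 weeks at sampling, and the 3 control liver samples came from normal mice aged 20 weeks. Every host was wild type and had been given monocrotaline, an alkaloid that injures the liver, into the abdomen at 70 mg/kg in 2 doses 2 weeks apart, starting at 7 to 9 weeks of age, with the cells following 2 weeks after the second dose. Donors of the hepatocytes, aged 8 to 20 weeks, carried a human antitrypsin transgene (hA1AT), so neo-liver held transgenic donor cells beside cells of the wild-type host, whereas host liver and control liver were wild type. Control liver thus differed from the other groups in age, in monocrotaline given to the host and in the transplant together. From neo-liver it differed also in the transgene and in the mix of donor and host cells, of which the donor cells were placed after the last dose. These differences cannot be told apart. The sources used here do not say whether a sample pooled animals.

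Levels are given as the log2 signal minus the 75th percentile of the signal of that array, so that 0 is the level of a fairly bright probe and 1 unit is a 2-fold change. The 75th percentile lay between 416 and 676 on neo-liver arrays, 287 and 448 on host liver arrays, 389 and 424 on control liver arrays and 561 and 874 on host kidney arrays. The spread between 3 or 4 arrays a group limits the precision of each value. Differences were tested with limma in 1 fit over all arrays, two-sided, and a gene was called at a Benjamini-Hochberg adjusted p under 0.05 over the 15592 genes. The p-values measure the spread between these samples, part of which may be technical. Neo-liver and control liver arrays lay on 1 slide and host kidney arrays on another, while host liver arrays 1 and 2 shared a slide of their own and so did host liver arrays 3 and 4. Slide and group can therefore not be told apart wherever host liver or host kidney is compared.

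Major urinary proteins are small secreted lipocalins, barrel-shaped carriers of small hydrophobic molecules. Hepatocytes make them in large amounts, the kidney passes them into urine, and there they bind volatile pheromones and release them slowly. In mouse liver their genes answer to the pulses of growth hormone, which act through its receptor, the kinase Jak2 and the transcription factor Stat5b, and they are usually more active in males. Mup20 encodes darcin, a male scent-mark protein that attracts females. The genes arose by duplication and stand side by side on chromosome 4, where the annotation lists 22 numbered Mup genes. Mup6 is the second of these along the chromosome, while Mup5, Mup20 and Mup3 are the 19th, the 20th and the 21st, next to each other.

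Near-identical copies may share probes. The array held 12 probes for 10 of the 22 genes, and the other 12 genes had no probe of their own. The annotation lists Mup2 as an older name of Mup6, Mup18 as an older name of Mup5, and Mup6 as an older name of both Mup18 and Mup19. The letters of the probes were not available, so a signal below is that of the probe assigned to a symbol and may include RNA of its copies.

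How alike the copies are can be seen in the promoters of Mup3 and Mup6, the 2 of the 4 genes with a RefSeq promoter sequence. They are shown because Mup6 was called lower in the injured liver and Mup3 was not, although the difference between the 2 genes there was not tested. Each sequence is the 250 bases before the annotated start, read 5′ to 3′ on the strand of the gene in build GRCm38.p6, at chr4:62087318-62087567 on the minus strand for Mup3 and at chr4:60003231-60003480 on the plus strand for Mup6. Capitals mark matches to TATATAA, the letters of a core promoter box, and to ATCAAT, the core of sites bound by Onecut factors.
Mup3: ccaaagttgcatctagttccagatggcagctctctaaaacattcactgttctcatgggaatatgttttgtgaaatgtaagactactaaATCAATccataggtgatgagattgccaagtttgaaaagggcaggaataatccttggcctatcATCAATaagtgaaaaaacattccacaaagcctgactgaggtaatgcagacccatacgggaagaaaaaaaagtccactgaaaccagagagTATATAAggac
Mup6: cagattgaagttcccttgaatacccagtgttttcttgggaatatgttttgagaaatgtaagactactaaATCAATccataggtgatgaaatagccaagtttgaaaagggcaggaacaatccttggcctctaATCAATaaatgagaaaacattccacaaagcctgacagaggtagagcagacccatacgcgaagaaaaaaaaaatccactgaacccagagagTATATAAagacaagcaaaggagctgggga

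Over 300 bases each, which add 50 bases past the start, the promoters of Mup3 and Mup6 aligned in 282 columns with 250 identical bases, or 88.7%. Mup3 was closest to its neighbour Mup21, at 93.3%, and Mup6 to its neighbour Mup4, at 92.3%, among the Mup genes with a probe and a promoter sequence. ATCAAT was found 2 times in each window, at bases -162 to -157 and -100 to -95 of Mup3 and -181 to -176 and -119 to -114 of Mup6, where base -1 is the last before the annotated start. It occurred at least 2 times, on either strand, in 14 of 14 Mup windows and in 0.609% of all 32851 windows in the table. TATATAA was found in 11 of 14 Mup windows and in 3.04% of all windows on either strand, and TTCNNNGAA, the palindrome bound by Stat5, in 0 of 14 and in 7.02%. The Mup genes arose by duplication, so the 14 windows are not independent and their counts are no measure of enrichment. These matches describe the letters of the windows and show no binding.

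Mup3 had levels of 5.45, 7.00, 5.12 and 4.98 in neo-livers 1 to 4, against 9.11, 9.15, 7.58 and 7.93 in host livers 1 to 4. It stood at 9.20, 9.22 and 9.27 in control livers 1 to 3 and at -7.50, -2.17, -8.07 and -7.87 in host kidneys 1 to 4. Neo-liver was below both liver groups without overlap, neo-liver 2 was its highest array, and the 3 control livers lay within 0.072 of each other. From high to low the group means ran control liver, host liver, neo-liver and host kidney, and the first pair did not pass the test, although the 4 host livers were all below the 3 control livers, as for 16.1% of all genes tested.

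Mup5 had levels of 5.24, 6.83, 4.37 and 4.84 in neo-livers 1 to 4, against 9.91, 9.97, 8.03 and 8.85 in host livers 1 to 4. In control livers 1 to 3 it stood at 9.60, 9.63 and 9.65, and in host kidneys 1 to 4 at -5.46, -2.48, -5.25 and -5.68. Every neo-liver array was below every array of both liver groups. Host livers 1 and 2 were above the control livers and host livers 3 and 4 below them, so those groups overlapped. The order of the means was the same as for Mup3, and control liver and host liver did not differ beyond their spread.

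Mup6 had levels of 2.70, 4.31, 1.96 and 2.04 in neo-livers 1 to 4, against 4.65, 4.64, 2.36 and 2.90 in host livers 1 to 4. It was at 7.26, 7.23 and 7.39 in control livers 1 to 3 and at -7.42, -4.74, -7.97 and -7.74 in host kidneys 1 to 4. Here the 2 tissues of the hosts overlapped, with neo-livers 1 and 2 among the host livers, and both lay below control liver without overlap. The means again ran control liver, host liver, neo-liver and host kidney, but the neighbours that did not differ beyond their spread were host liver and neo-liver.

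The brighter Mup20 probe had levels of 6.69, 8.29, 6.25 and 6.48 in neo-livers 1 to 4, against 10.14, 10.03, 8.92 and 9.45 in host livers 1 to 4. Control livers 1 to 3 stood at 9.80, 9.90 and 9.85, and host kidneys 1 to 4 at -7.41, -0.91, -6.23 and -6.55. Neo-liver lay below both liver groups without overlap, and host liver overlapped control liver. The dimmer probe of the same gene had 4.78, 6.37, 5.74 and 4.14 in neo-livers, against 7.23, 7.61, 6.45 and 6.02 in host livers. On that probe control livers had 8.58, 8.42 and 8.62 and host kidneys -6.27, -3.11, -6.13 and -7.81. The dimmer probe thus put neo-liver 2 among the host livers, and put all host livers below the control livers.

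**Figure D1:**
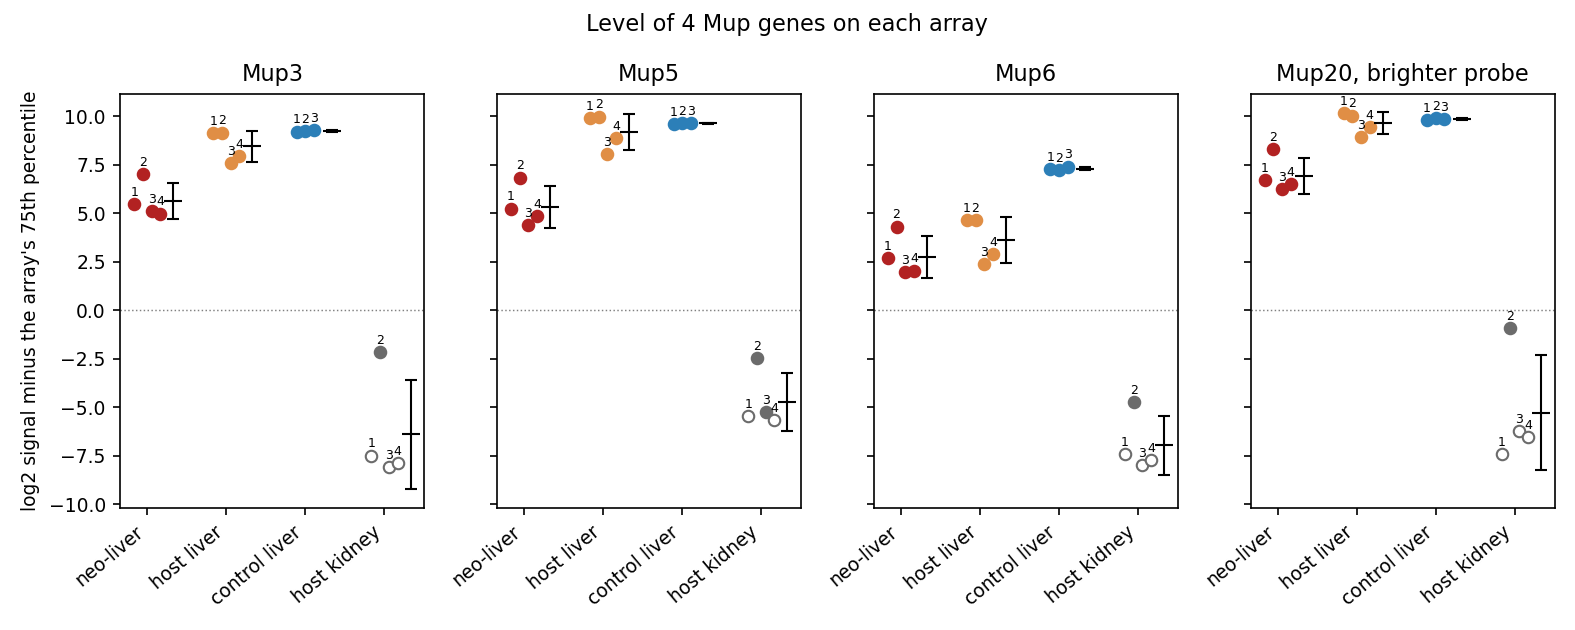
Level of the probe of each gene on each array (y axis, log2 signal minus the 75th percentile of the array) in the 4 groups, with array numbers, filled points for probes well above background, open points for the others, and the mean ± SD beside each group. Neo-liver lies between the other livers and host kidney for Mup3, Mup5 and Mup20, Mup6 overlaps between neo-liver and host liver, and host kidney 2 stands above the other kidneys.

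The ectopic tissue was first set against normal liver. All 4 genes fell in neo-liver relative to control liver, a comparison in which 29.8% of all genes tested were called lower. Mup6 averaged 2.75 ± 1.09 in neo-liver and 7.29 ± 0.09 in control liver (SD, n = 4 and 3), a log2 difference of -4.54 ± 0.80 (SE, limma adjusted p = 0.000423). Mup5 fell by 4.30 ± 0.75 (limma adjusted p = 0.00039), a signal 19.7 times lower, and Mup3 by 3.59 ± 1.12 (adjusted p = 0.0169), 12.1 times lower. Mup20 fell by 2.92 ± 1.14 (adjusted p = 0.0475). The median of the 4 differences was -3.95, against -0.15 over all genes tested, and the groups did not overlap for any of the 4, as for 35.1% of all genes in that direction. Over all genes 3186 were called higher and 4641 lower, and with quantile normalization 3611 and 3294.

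The Mup20 call was close to the threshold. It was lost on leaving out any 1 control liver or neo-liver 1, 3 or 4 (limma adjusted p 0.0832 to 0.102), and under quantile normalization (-2.29, adjusted p = 0.103). The shared estimate of the spread includes host kidney 2, which stood apart from the other kidneys: without that array the SE of Mup20 was 0.46 and its adjusted p 0.000242, and the SE of Mup3 was 0.48 and its adjusted p 7.5e-05. Within the single slide that held these 2 groups, fitted alone, all 4 genes were called, at adjusted p 0.000557 to 0.00199. Neo-liver here is bulk tissue, in which fewer hepatocytes and less RNA per hepatocyte cannot be told apart.

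Against host liver, the injured liver of the same kind of mouse, 3 of the 4 genes fell in neo-liver, where 31.1% of all genes tested were called lower. Mup5 averaged 5.32 ± 1.07 in neo-liver and 9.19 ± 0.93 in host liver (SD, n = 4 each), a difference of -3.87 ± 0.70 (SE, limma adjusted p = 0.000614). Mup3 fell by 2.81 ± 1.04 (adjusted p = 0.0393) and Mup20 by 2.71 ± 1.06 (adjusted p = 0.049). Mup6 differed by -0.88 ± 0.74 (adjusted p = 0.344). Mup3, Mup5 and Mup20 lay below host liver without overlap, as did 22.6% of all genes. Over all genes 2681 were called higher and 4846 lower, with quantile normalization 2688 and 2569, and with arrays centred on their median 2111 and 6975.

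Of these calls, Mup5 held without any 1 array. The Mup3 call was lost without host liver 1, 2 or 4 or neo-liver 1, 3 or 4 (limma adjusted p 0.0534 to 0.0887), and the Mup20 call without any 1 host liver or neo-liver 1, 3 or 4 (0.0596 to 0.101). With slide as a random block both were lost as well, at 0.0511 for Mup3 and 0.0629 for Mup20, whereas without host kidney 2 both had smaller values, 0.000347 and 0.000313. On the dimmer Mup20 probe the difference was -1.57 ± 0.78 (adjusted p = 0.113) and the groups overlapped.

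The labels do not say whether the replicate numbers of the host tissues stand for mice. They were taken as mice after a check given with the processing, and each neo-liver was set against the host liver of its number. Neo-liver minus host liver ran from -4.67 to -3.13 over the 4 mice for Mup5, from -3.66 to -2.16 for Mup3 and from -3.44 to -1.74 for the brighter Mup20 probe. Mup6 was lower in 4 of 4 mice too, at -1.95 in mouse 1 and -0.32, -0.40 and -0.86 in mice 2 to 4. The share of all genes lower in 4 of 4 mice was not counted. For Mup3, Mup5, Mup6 and the brighter Mup20 probe mouse 1 had the largest difference and mouse 2 the smallest. With the mouse as a fixed block the adjusted p of Mup6 was 0.065.

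**Figure D2:**
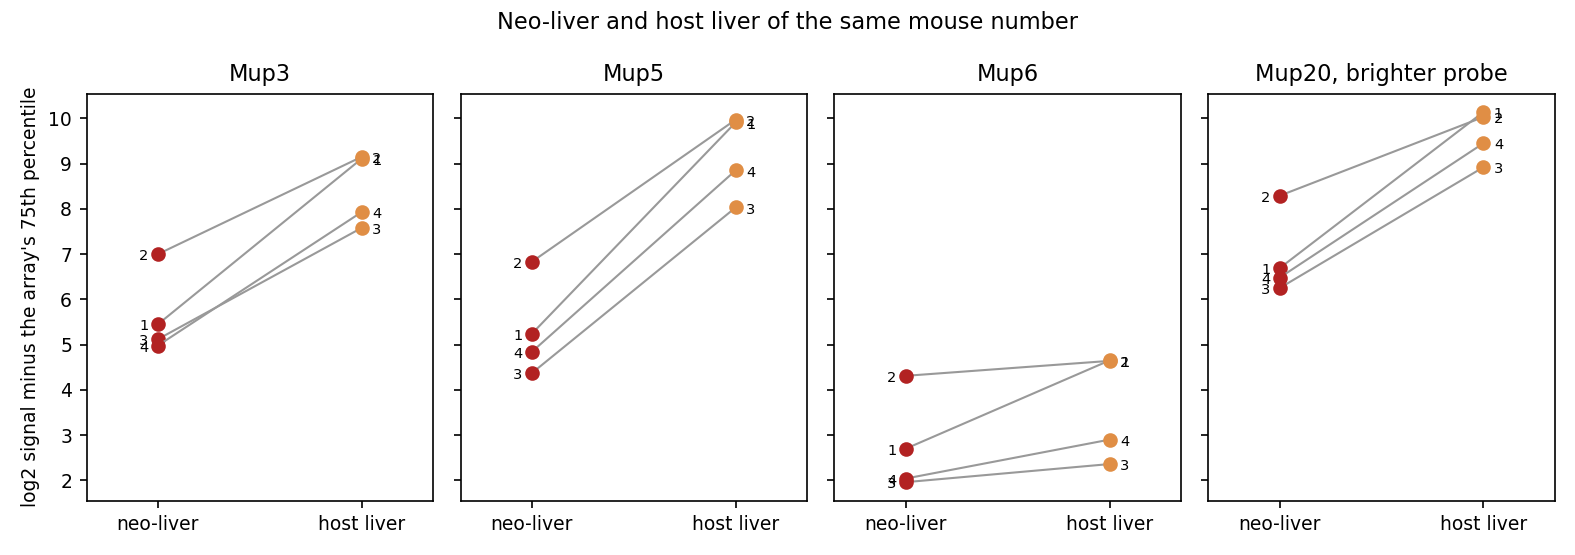
Level of each gene (y axis, log2 signal minus the 75th percentile of the array) in neo-liver and host liver, with lines joining the samples of 1 mouse number. The neo-liver end is the lower one in all 16 lines, and in each mouse the line of Mup6 is the least steep of the 4.

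A further comparison set the injured liver of older, transplanted mice against normal liver. Mup6 fell to a mean of 3.64 ± 1.18 in host liver, against 7.29 ± 0.09 in control liver (SD, n = 4 and 3), a difference of -3.66 ± 0.80 (SE, limma adjusted p = 0.00595). Mup6 was 1 of the 4 genes called lower, where 11.3% of all genes were. Mup3 differed by -0.79 ± 1.12 (adjusted p = 0.639), Mup5 by -0.43 ± 0.75 (adjusted p = 0.705) and Mup20 by -0.21 ± 1.14 (adjusted p = 0.91). Over all genes 2074 were called higher and 1762 lower, and with arrays centred on their median 3217 and 1192. The intervals of the last 3 genes are wide and leave room for changes of over 2-fold in each.

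The host livers split by slide, and the split was in the same direction for all 4 genes. Host livers 1 and 2 exceeded host livers 3 and 4 by 1.38 for Mup3, 1.5 for Mup5, 2.01 for Mup6 and 0.90 for the brighter Mup20 probe, whereas the median over all genes tested was 0.01 and 3.30% of them differed by at least 1 that way. Relative to control liver, Mup5 was 0.32 higher on the first slide and 1.18 lower on the second, and Mup20 0.23 higher and 0.66 lower. Mup6 was lower on both, by 2.65 and by 4.66, with an adjusted p of 0.0722 when the first slide alone was used. Each slide held different mice. In neo-liver, where all arrays shared a slide, arrays 1 and 2 were also above arrays 3 and 4 for Mup3, Mup5, Mup6 and the brighter Mup20 probe, but not for the dimmer one. The part of slide and of mouse in the split was not tested.

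**Figure D3:**
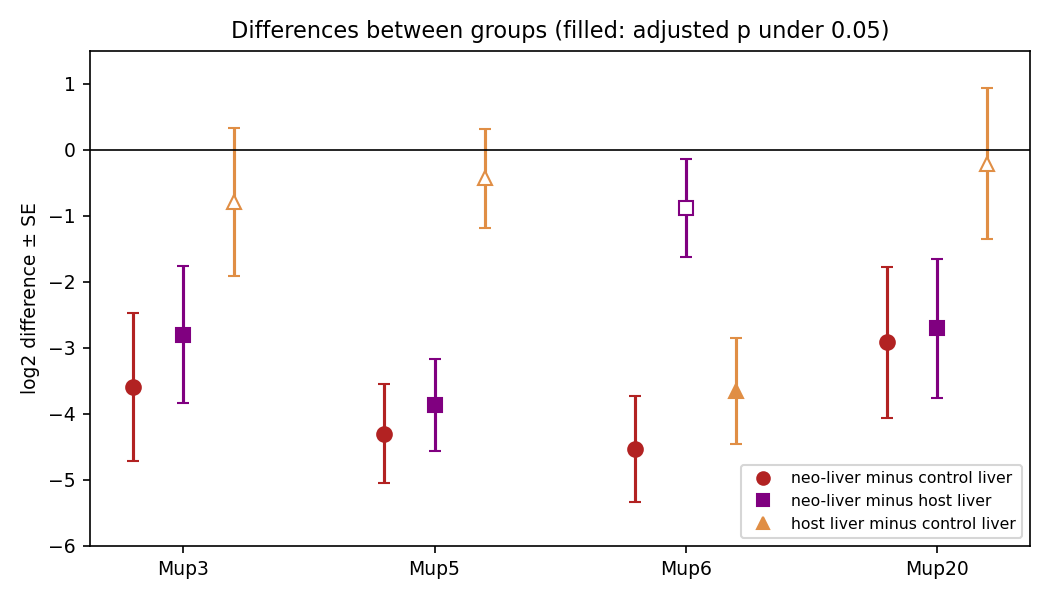
Log2 differences ± SE of the 4 genes from the fit over all arrays, for neo-liver minus control liver, neo-liver minus host liver and host liver minus control liver, filled where the adjusted p was under 0.05. Mup6 has its larger step between host liver and control liver, and the other 3 genes have theirs between neo-liver and host liver.

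Whether the members changed unequally was tested on the difference between 2 genes on each array, with exact two-sided permutation tests over the 6 pairs in each of 2 comparisons, adjusted over all 12. In neo-liver minus host liver the value of Mup5 minus Mup6 was -2.98 and that of Mup6 minus Mup20 was 1.82, both without overlap (exact permutation p = 0.0286, adjusted p = 0.0623, the smallest reached). For Mup3 minus Mup20 the value was -0.10 and the groups overlapped (exact permutation adjusted p = 0.6). In neo-liver minus control liver Mup6 minus Mup20 was -1.62 and Mup5 minus Mup20 was -1.38, again without overlap (exact permutation p = 0.0571, adjusted p = 0.0623). The smallest p that 4 arrays against 4 allow is 0.0286 and 4 against 3 allow 0.0571, so with the adjustment over all 12 no pair could pass the threshold in either comparison, and these tests leave the question unanswered.

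Host kidney gave the level of the organ beneath whose capsule the hepatocytes had been placed. Against it all 4 genes were called higher in each of the 3 liver groups. Of all genes tested, 23.2% were called higher in neo-liver, 39.6% in host liver and 36.3% in control liver relative to that organ. In neo-liver Mup5 was 10.04 ± 0.70 higher and Mup6 9.72 ± 0.74 higher than in host kidney (SE, limma adjusted p = 5.49e-08 and 1.53e-07). In host kidney the probes of Mup3, Mup6 and Mup20 were above background on 1 of 4 arrays, host kidney 2, and that of Mup5 on arrays 2 and 3, so the sizes of these differences rest on signals near or below background. All 4 genes thus passed the filter on dim signals through the liver groups and not through host kidney. That filter favours calls in this direction, so the calls against host kidney add no independent support.

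On host kidney 2 the signal was a small part of that of host liver, 0.0571% for Mup3, 0.0268% for Mup5, 0.24% for Mup6 and 0.0632% for Mup20, while on the other 3 kidneys the highest of these shares was 0.0375%, that of Mup6 on host kidney 1. Of 8 hepatocyte markers, 6 were also highest on host kidney 2. Alb was at 0.0725% of its host liver signal there, against 0.0346% to 0.0489% on the other kidneys. Fgb went the other way and was lowest there, at 0.142% against 0.187% to 0.222%, and Cps1 was below background on all kidneys. The summed level of the 8 markers was 4.47 on host kidney 2 and 3.72 to 4.19 on the others. The share of all genes highest on host kidney 2 was not counted. The part of liver RNA in these kidney signals was not tested.

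The other 6 Mup genes with a probe were Mup2, Mup4, Mup17, Mup18, Mup19 and Mup21. In neo-liver against control liver 3 of the 6 fell, where 29.8% of all genes tested were called lower. These were Mup21 by 3.90 ± 0.65 (limma adjusted p = 0.000271), Mup4 by 2.62 ± 0.93 (0.0307) and Mup2 by 2.09 ± 0.71 (0.0247). Mup17, Mup18 and Mup19 differed by -2.21, -2.38 and -2.39 (SE 1.02, 1.12 and 0.96) without passing the test (limma adjusted p = 0.0876, 0.0918 and 0.0523). For each of them every neo-liver array lay below every control liver array. The shared estimate of the spread takes in host kidney, where their SDs were 2.616, 2.903 and 2.418. Their SDs were 0.935, 0.943 and 0.972 in neo-liver and 0.085, 0.088 and 0.096 in control liver. The missing calls therefore do not show that these genes were unchanged. Against host liver 4 of the 6 fell, Mup2, Mup4, Mup19 and Mup21 (31.1% of all genes), and the 6 differences ran from -2.54 to -2.18. In host liver against control liver none of the 6 was called by limma, where 11.3% of all genes were called lower and 13.3% higher. There 5 of the differences lay between -0.08 and 0.11, with Mup21 at -1.54 (limma adjusted p = 0.102).

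Probes of 1 gene did not always tell the same story. The brighter Mup4 probe differed by -0.08 ± 0.92 between host liver and control liver, and the dimmer one fell by 3.40 ± 0.82 (limma adjusted p over probes = 0.0103). In neo-liver against control liver both probes were called lower, the brighter by 2.62. The dimmer was above background on 1 of 4 neo-liver arrays, 3 of 4 host liver arrays and 3 of 3 control liver arrays, so the sizes of its differences are uncertain. Of all probes with a symbol, 10.6% were called lower in the first comparison, 29.5% in the second and 31.1% in neo-liver against host liver. The dimmer Mup20 probe differed by -1.71 ± 0.84 between host liver and control liver (adjusted p over probes = 0.159), against -0.21 on the brighter probe. The 2 Mup probes called lower in host liver, those of Mup6 and the dimmer one of Mup4, had 8.77% to 9.79% and 0.191% to 0.236% of the brightest signal of the array in control liver, while the other 10 had 20.0% to 83.5%. No spot was called saturated, and the part of signal strength in this pattern was not tested. All 12 Mup probes were lower in neo-liver than in the host liver of the same number, for 4 of 4 numbers. The share of all probes that were so was not counted, and probes of near-identical copies may measure the same RNA.

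**Figure D4:**
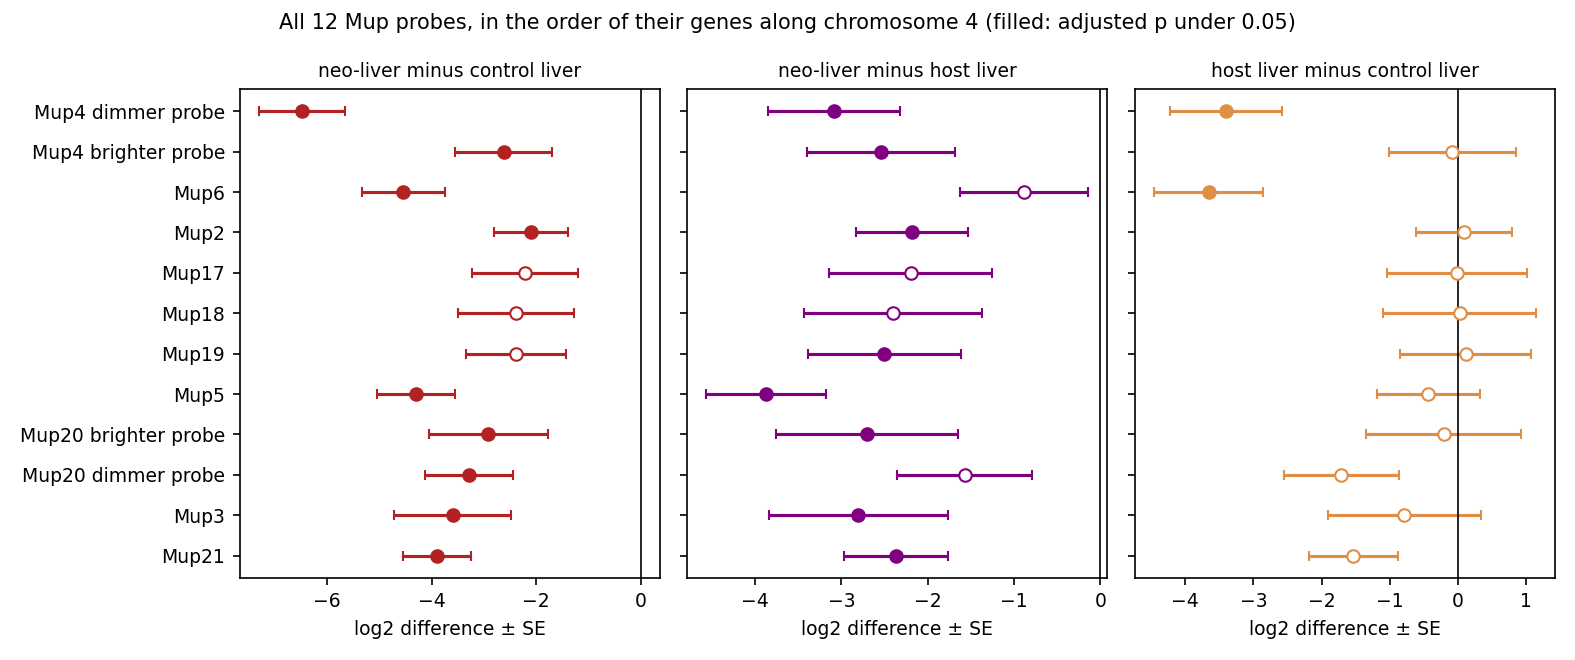
Log2 differences ± SE of all 12 Mup probes (rows, in the order of their genes along chromosome 4) in 3 comparisons, filled where the adjusted p over probes was under 0.05. All 12 lie below 0 in neo-liver minus control liver and in neo-liver minus host liver, and in host liver minus control liver Mup6 and the dimmer Mup4 probe are called.

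Of 16 genes of the growth hormone axis, 7 fell and 2 rose in neo-liver against control liver (29.8% and 20.4% of all genes), with a median of -0.35. Ghr, the growth hormone receptor gene, fell by 1.43 ± 0.20 (limma adjusted p = 5.79e-05) and Stat5b by 0.34 ± 0.13 (0.0418). Genes of the proteins that carry circulating Igf1 moved apart: Igfals, the acid-labile subunit, fell by 2.02 ± 0.28, and Igfbp3, a binding protein, rose by 1.14 ± 0.40. Igf1, the main hormone made in answer to growth hormone, fell by 1.34 ± 0.27. Onecut1, a liver transcription factor, fell by 2.58 ± 0.48, and Bcl6, a repressor of Stat5 targets, rose by 0.98 ± 0.20. The genes that rose, Igfbp3 and Bcl6, had means of 1.67 and 1.82 in host kidney, 1.21 and 1.84 in neo-liver and 0.08 and 0.86 in control liver. The part of kidney tissue in these rises was not tested. The feedback inhibitor genes Socs2 and Cish differed by 0.61 ± 0.56 and -0.35 ± 0.30 and did not pass the test (limma adjusted p = 0.386 and 0.351).

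In neo-liver against host liver 9 of the 16 fell and 1 rose (31.1% and 17.2% of all genes), Ghr by 1.27 ± 0.18 among them. In host liver against control liver none of the 16 fell and 3 rose (11.3% and 13.3% of all genes): Jak2 by 0.35 ± 0.12, Stat5a by 0.63 ± 0.13 and Bcl6 by 1.29 ± 0.20 (limma adjusted p = 0.0463, 0.00416 and 0.000685). Ghr differed by -0.16 ± 0.20 there.

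Of 10 genes reported to act on Mup expression, 4 fell and 1 rose in neo-liver against control liver, where 29.8% and 20.4% of all genes did. Cebpa, which encodes a factor of hepatocyte gene expression, fell by 1.81 ± 0.29 (limma adjusted p = 0.000189), Thrb, a thyroid hormone receptor gene, by 0.93 ± 0.11 (1.57e-05), and the others were Ghr and Stat5b. Ppargc1a, a coactivator of fasting metabolism, rose by 1.01 ± 0.17. Its mean was 3.77 in host kidney, 2.05 in neo-liver and 1.04 in control liver, and the part of kidney tissue in the rise was not tested. Zhx2, which represses several liver genes after birth, differed by -0.19 ± 0.48. Its means of -3.85 in neo-liver and -3.66 in control liver were near background. It was above background on 3 of 4 neo-livers and 1 of 4 host livers, so its probe says little about a change. Nr3c1, the glucocorticoid receptor gene, differed by -0.60 ± 1.68. The Nr3c1 groups did not overlap, at 4.01 to 4.32 in neo-liver and 4.73 to 4.76 in control liver, and the wide SE goes with a single host liver array at -4.60 in the shared fit. Against host liver the counts were again 4 and 1 (31.1% and 17.2% of all genes). In host liver against control liver none of the 10 was called by limma, where 11.3% of all genes were called lower and 13.3% higher.

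Of 16 tested genes that are usually higher in male liver, 4 fell and 3 rose in neo-liver against control liver, shares near those of all genes (29.8% and 20.4%). Nudt7, a coenzyme A hydrolase gene, fell by 2.30 ± 0.34 and the cytochrome gene Cyp2d9 fell by 1.51 ± 0.32, while Nat8, an acetyltransferase gene that kidney also makes, rose by 3.74 ± 0.47 (limma adjusted p = 0.0001, 0.00163 and 2.51e-05). Cyp4a12a, a fatty acid hydroxylase gene also made in kidney, rose by 4.54 ± 1.04, with 1 of 3 control livers above background. Of 19 tested genes that are usually higher in female liver, 8 fell and 1 rose, beside the same shares of all genes. A1bg, a plasma glycoprotein gene, fell by 3.77 ± 0.93 (limma adjusted p = 0.00438), and Fmo2, an oxygenase gene, rose by 0.83 ± 0.32 (0.0445), with groups that overlapped. The medians were 0.10 for the first list and -1.32 for the second.

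Among 12 other lipocalin genes tested, 5 fell and 1 rose in neo-liver against control liver (29.8% and 20.4% of all genes), with a median of -0.68. Orm3, of the acid glycoprotein family, fell by 2.32 ± 0.82 and Ptgds, a prostaglandin synthase gene, by 1.68 ± 0.44 (limma adjusted p = 0.0318 and 0.0061). Lcn2, an iron-withholding protein gene of inflammation, rose by 2.49 ± 0.85 (0.0262). The retinol carrier gene Rbp4, made in quantity by hepatocytes, differed by -0.83 ± 0.41 (0.108).

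Markers of hepatocytes and of kidney moved with the groups. The summed level of 8 hepatocyte markers was 3179 to 5114 in neo-liver, 5585 to 8607 in host liver, 5217 to 5570 in control liver and 3.72 to 4.47 in host kidney, in multiples of the 75th percentile of an array. In neo-liver against control liver 4 of the 8 fell, where 29.8% of all genes did, and the median was -0.55. Cps1, a urea cycle gene, fell by 3.24 ± 0.40, Tat, a tyrosine-degrading enzyme gene, by 2.73 ± 0.47, Ttr by 1.14 ± 0.29 and Alb by 0.60 ± 0.22. Kidney epithelium markers, 16 of them, summed to 230 to 578 in neo-liver, 36.0 to 86.8 in host liver, 119 to 139 in control liver and 1634 to 2463 in host kidney. The control liver sums rest largely on the Pax2 probe, and those of host liver to a smaller extent. That probe was dim in host kidney, so what it measured is uncertain. Without it, a choice made after seeing the data, the other 15 summed to 229.9 to 575 in neo-liver, 33.9 to 49.0 in host liver, 45.1 to 47.8 in control liver and 1634 to 2462 in host kidney. All 16 were above background on every neo-liver array, and 14 rose against control liver, as did 20.4% of all genes. In control liver 8 of the 16, among them Umod, Lrp2 and Slc5a2, were below background on all arrays. Pax2 fell, with a mean of -0.62 in neo-liver and 6.42 in control liver. Aqp1 was bright in both and differed by 0.19 ± 0.23, with means of 5.67 and 5.48. Most of the sums left without Pax2 in control liver, and in host liver, where the mean of Aqp1 was 5.36, came from this 1 probe. Neo-liver 2, the array with the highest levels of Mup3, Mup5, Mup6 and Mup20 in its group, also had the highest kidney sum and the lowest hepatocyte sum. The part of kidney tissue in the lower Mup levels was not tested.

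**Figure D5:**
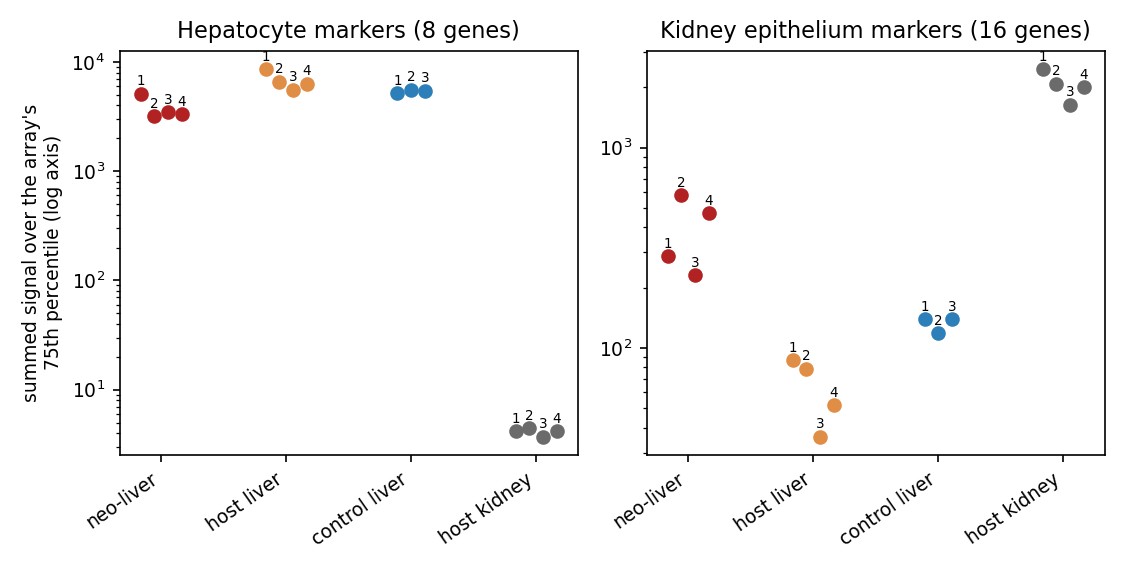
Summed signal of 8 hepatocyte markers and 16 kidney epithelium markers on each array, in multiples of the 75th percentile of the array, on log axes, with array numbers. All neo-liver arrays lie below the other livers in hepatocyte markers, with neo-liver 1 just under the control livers, and between the livers and host kidney in kidney markers.

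The genes whose pattern was most like each member were sought among 12493 genes, Mup genes left out, that were above background on all 11 neo-liver, host liver and control liver arrays, by the root mean square difference in log2 level after centring each gene on its own mean. For Mup3 they were Cyp2f2 (0.56), Hal (0.56) and Aldh1b1 (0.59). For Mup5 they were Sult5a1 (0.62), Cyp2f2 (0.63) and Mmd2 (0.80), and for Mup20 Gm128 (0.51), Hal (0.58) and Car3 (0.60). Mup6 had none of these: its nearest were Dleu2 (0.60), Pdxp (0.64) and Thrsp (0.71). Thrsp, a gene of fat synthesis, averaged 4.86 in neo-liver, 6.07 in host liver and 9.04 in control liver, whereas Cyp2f2, a cytochrome gene, averaged 4.52, 7.98 and 8.76 in the same order. The measure takes the 11 arrays together, so it reflects the group means as well as single arrays.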

How the data were processed

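The scanner intensity used here is the processed signal of Agilent Feature Extraction 10.10.1.1, per the file headers and the submitters' processing notes; it is background-subtracted, detrended and not scaled between arrays. A log2 value for each probe was also deposited by the authors. It equalled the log2 signal less a constant per array, to within 0.01, for 99.8% to 99.9% of probes. How it was computed is not given, but on every array the constant was close to the log2 of the 75th percentile. On host kidney 1, for example, these were 9.1292 and 9.1277. Spots of a probe were averaged, 123 of 55681 probes were dropped for outlier flags, and log2 signal minus the 75th percentile was analysed. Probes well above background on every array of at least 1 group were kept (34902, of which 20338 had a symbol and 14564 had none and were not tested), and the brightest probe of a symbol was taken (15592 genes). limma 3.58.1 in R 4.3.3 (with statmod 1.5.0) fitted a mean per group and was tested on simulated data. Permutation tests used scipy 1.17.1.

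The members and gene lists were chosen with earlier results of these data known. Named were the members, all Mup genes with a probe, the 3 genes nearest to each member, and up to 2 risen and 2 fallen called genes of each list; other list genes were added after their values were seen, and 1 gene the rule names is not reported here. Among the 3 host tissues, deviations from the group means were most alike between samples of the same number, in 4 of 4 numbers (r from 0.179 to 0.577 over genes, which are not independent), so a number was taken as a mouse. Control livers only share numbers. Alternatives were other scalings, filters, probe choices, blocks and array subsets. Among them were the deposited log2 values, whose scaling was nearly that of the main fit.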

Additional observations from a re-analysis of the deposited data

Results flagged for a closer look

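On host kidney 2 the level of Mup3 was -2.17, while the other 3 kidneys lay between -8.07 and -7.50, a gap of 0.905 of the range of the group. On the same array Mup5 stood at -2.48, against -5.68 to -5.25 on the other kidneys, a gap of 0.868 of the range. Both gaps exceed the critical value of Dixon's test at 95% for 4 samples. Of 15 groups of 4 tested this way, 2 met the criterion, both on this array, and chance alone gives about 1 in 20. On the other 3 kidneys Mup3 was not well above background, and Mup5 was so on host kidney 3 alone.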

How the results depend on the processing

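Over the alternatives run for the 4 genes in 6 comparisons, 450 values kept their direction and their side of the threshold, 32 kept only the direction and 4 changed sign; among counts of called genes, 115 stayed within 1.5 times and 5 did not. The cause was not tested for any of them. The scaling moved the median of all genes in neo-liver minus host liver from -0.21 to -0.07 with quantile normalization and to -0.41 with median centring. Quantile normalization lost Mup20 in neo-liver against control liver (-2.29), and Mup3 (-2.12) and Mup20 (-1.80) in neo-liver against host liver. Without the filter on dim probes, which tests more genes, Mup20 in neo-liver against control liver stood at -2.92 (limma adjusted p = 0.0585). In neo-liver against host liver Mup20 was lost with the mean of its probes (-2.14) and with the dimmer probe (-1.57), and Mup3 (-2.81) and Mup20 (-2.71) were lost with slide as a random block.

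Some alternatives were added after seeing the data. With host livers 1 and 2 alone, neo-liver minus host liver was -3.50 for Mup3 and -3.15 for Mup20, no longer called, and host liver minus control liver was -2.65 for Mup6, no longer called, and turned to 0.32 for Mup5 and 0.23 for Mup20. With host livers 3 and 4 alone, neo-liver minus host liver was -2.11 for Mup3 and -2.26 for Mup20, no longer called, and turned to 0.12 for Mup6. The number of genes called between host liver and control liver, 3836, was 2477 with these groups alone and 1945 with host livers 1 and 2 alone. Leaving out host kidney 2, or the whole host kidney group, ended no call on the 4 Mup genes between the other groups.

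With 1 array left out in turn, neo-liver minus control liver ran from -4.05 to -3.37 for Mup3, -4.81 to -3.99 for Mup5, -5.06 to -4.28 for Mup6 and -3.37 to -2.69 for Mup20, and neo-liver minus host liver from -3.26 to -2.57, -4.37 to -3.55, -1.40 to -0.55 and -3.16 to -2.48 in the same order. Host liver minus control liver ran from -1.03 to -0.50, -0.69 to -0.05, -3.99 to -3.23 and -0.38 to 0.024, the last turning to 0.024 without host liver 3, and its count of called genes from 2274 (without control liver 1; 2292 and 2441 without the other control livers) to 4146.

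With the mouse number as a replicate block no call on the 4 genes changed: in neo-liver against host liver the adjusted p of Mup5 was 0.000175, of Mup3 0.0155 and of Mup20 0.0316. Signal over background limits host kidney, where each gene was above background on 1 or 2 of 4 arrays.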
